A study of Mus musculus with 6 samples.

Results

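The genes described here code for the subunits of the mouse proteasome and for the factors that assemble, open or inhibit it, and they were followed in bone marrow-derived macrophages given lipopolysaccharide (LPS), which macrophages sense as a sign of bacteria. Members were all genes whose symbol starts with Psma, Psmb, Psmc, Psmd, Psme, Psmf or Psmg and that reached 1 FPKM (fragments per kilobase, relative to all mapped fragments) in any library. Of 50 matching symbols among 17904 genes, 49 passed, and 11549 genes in all passed that minimum. The 49 members comprise the interferon-inducible subunits Psmb8, Psmb9, Psmb10, Psme1 and Psme2, called the inducible 5 below, 31 constitutive subunits of the core and the cap, 10 accessory factors, and 3 genes that are none of these. Psma8, an alpha subunit known from testis, lay just inside the minimum with 1.15 FPKM in KO and 1.23 FPKM in WT macrophages at 0 h, and Psmb11, the catalytic subunit of the thymus, lay just outside with at most 0.49 FPKM.

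The macrophages were grown from marrow of C57BL/6 mice aged 8 weeks, with M-CSF, a growth factor for macrophages, for 5 days, and then received LPS at 100 ng/ml. The 6 groups were Setd2 knockout (KO) cells at 0, 12 and 24 h of LPS and wild-type (WT) cells at 0, 12 and 24 h, with 1 library per group. Setd2 encodes the methyltransferase that places trimethylation on lysine 36 of histone H3. The labels do not describe the Setd2 allele or its deleter, nor whether any of the libraries come from 1 animal or 1 culture. A difference between 2 libraries therefore has no replicate error.

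The proteasome degrades proteins tagged with ubiquitin inside a barrel, the 20S core, which is opened by the 19S cap. The beta subunits Psmb5, Psmb6 and Psmb7 carry the cutting sites of the constitutive core. Interferons induce Psmb8, Psmb9 and Psmb10, which take their places in newly built cores to give the immunoproteasome, and Psme1 and Psme2, which form the PA28 activator. In macrophages and dendritic cells these forms are known for making peptides for MHC class I.

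The promoters of the inducible Psmb8 and Psme1 and of the constitutive catalytic Psmb5 and Psmb6 are shown because the results set these genes against each other. They run from 250 bases before to 50 bases after a start site (GRCm38.p6), which is the RefSeq gene start for Psmb8, Psme1 and Psmb5. The start used for Psmb6 lies inside the gene, whose RefSeq start is base 70525324. Promoters are printed 5′ to 3′ on the gene's own strand, and were available for 41 of the 49 members (44 promoters). Capitals mark the match to a motif searched on both strands.
Psmb8, chr17:34197945-34198244, plus strand: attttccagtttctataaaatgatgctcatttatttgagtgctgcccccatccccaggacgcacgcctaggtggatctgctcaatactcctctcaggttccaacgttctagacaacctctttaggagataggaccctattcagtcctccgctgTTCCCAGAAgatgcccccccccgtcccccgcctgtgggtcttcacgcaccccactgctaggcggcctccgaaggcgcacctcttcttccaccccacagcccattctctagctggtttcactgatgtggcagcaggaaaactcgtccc
Psme1, chr14:55578244-55578543, plus strand: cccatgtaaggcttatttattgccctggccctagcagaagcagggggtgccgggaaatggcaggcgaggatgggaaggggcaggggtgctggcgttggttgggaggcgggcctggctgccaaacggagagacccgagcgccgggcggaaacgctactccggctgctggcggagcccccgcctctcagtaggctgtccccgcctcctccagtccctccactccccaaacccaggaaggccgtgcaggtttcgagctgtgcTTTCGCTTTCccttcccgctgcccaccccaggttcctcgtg
Psmb5, chr14:54617946-54618245, minus strand: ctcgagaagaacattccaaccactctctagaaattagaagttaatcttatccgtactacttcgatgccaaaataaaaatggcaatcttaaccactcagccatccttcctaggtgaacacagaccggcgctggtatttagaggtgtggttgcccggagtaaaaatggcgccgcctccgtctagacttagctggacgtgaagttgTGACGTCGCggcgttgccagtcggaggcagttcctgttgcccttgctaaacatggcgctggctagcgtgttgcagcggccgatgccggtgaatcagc
Psmb6, chr11:70525107-70525406, plus strand: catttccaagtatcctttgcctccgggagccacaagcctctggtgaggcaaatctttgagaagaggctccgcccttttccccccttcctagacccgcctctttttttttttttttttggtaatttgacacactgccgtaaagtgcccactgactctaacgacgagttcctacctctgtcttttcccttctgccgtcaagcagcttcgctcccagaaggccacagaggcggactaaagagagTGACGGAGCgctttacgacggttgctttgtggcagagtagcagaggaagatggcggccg
In the Psmb8 promoter the capitals mark the letters TTCNNNGAA of the gamma-activated element, which begin 97 bases before the start. The Psme1 capitals, which begin at base 10 after the start, match, on the opposite strand, the interferon-stimulated response element as GAAA, 2 bases of any kind and GAAA again. In Psmb5 and Psmb6 they mark TGACNNNGC, the antioxidant response element also bound by the proteasome regulator Nfe2l1. They begin 47 bases before the start in Psmb5. In Psmb6 they begin 9 bases before the start used for its window and after its RefSeq gene start. The gamma-activated letters were in 8.30% of 32851 mouse promoters and in 3 of the 44 member promoters. The interferon-stimulated letters were in 3.44% of all promoters and in 5 of the 44, and the antioxidant letters in 12.4% of all promoters and in 6 of the 44. Among the inducible 5, Psmb8 alone held the gamma-activated letters and Psme1 alone the interferon-stimulated ones, and the windows of Psmb9, Psmb10 and Psme2 held none of the 3 patterns. The interferon-stimulated letters were also in the constitutive Psmb3 and Psmd4, and the gamma-activated ones in Psmd2. These are matches of letters only.

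As a check of the label, Setd2 itself was at 9.96, 9.16 and 5.11 FPKM in the libraries labelled KO and 7.83, 8.68 and 7.51 FPKM in those labelled WT at 0, 12 and 24 h. The gene-level value was thus lower in the library labelled KO only at 24 h, and a value summed over the gene cannot show a deletion of single exons, so KO and WT below mean the labels. Estimated depth was 21990000 to 22660000 mapped reads. All 8 macrophage markers reached 1 FPKM and summed to 2493 to 3683 FPKM in KO and 2518 to 4558 FPKM in WT libraries. Summed T cell, NK cell, mast cell, erythroid and epithelial markers stayed at or under 1.35 FPKM, and B cell markers at or under 3.52 FPKM. Neutrophil markers summed to 38.4 to 65.8 FPKM in KO and 76.8 to 84.0 FPKM in WT libraries, endothelial markers to 6.08 to 23.2 FPKM in KO and 3.48 to 14.9 FPKM in WT libraries, and fibroblast markers to 6.52 to 11.7 FPKM in KO and 6 to 10.4 FPKM in WT libraries. Their part in the results was not tested. In bulk RNA, fewer cells of a type and less RNA per cell cannot be told apart.

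The immunoproteasome subunits and PA28 alpha and beta rose with LPS in both genotypes, at both 12 and 24 h. The constitutive subunits as a group moved far less, with median log2 differences from 0 h of 0.07 and 0.46 in KO and 0.00 and -0.02 in WT cells at 12 and 24 h, or 0.47 and 0.94 in KO and 0.31 and 0.29 in WT cells under median-of-ratios scaling. Psmb8 (chr17:34198195-34201454 in GRCm38), whose product replaces Psmb5, was at 145, 380 and 498 FPKM in KO and 152, 397 and 309 FPKM in WT cells at 0, 12 and 24 h. The 4 LPS libraries all lay above both 0 h libraries. Psmb9, which replaces Psmb6, was at 41.6, 133 and 118 FPKM in KO and 49.7, 118 and 87.6 FPKM in WT cells. Psmb10, which replaces Psmb7, was at 52.9, 279 and 259 FPKM in KO and 48.5, 255 and 147 FPKM in WT cells. Psmb9 stayed the least abundant of the 3 in every LPS library, and Psmb10 moved farthest from its 0 h level. Psme1 was at 144, 371 and 452 FPKM in KO and 143, 345 and 257 FPKM in WT cells. Psme2 was at 139, 543 and 518 FPKM in KO and 137, 571 and 340 FPKM in WT cells, which made it the most abundant member at 12 h in both genotypes. Of the 5 dendritic cell markers, which summed to 6.73, 41.9 and 27.3 FPKM in KO and 4.63, 40.8 and 32.9 FPKM in WT cells, Ccr7 made up most of the sum, with 4.34, 39.2 and 25 FPKM in KO and 2.71, 38.7 and 31.1 FPKM in WT cells. Xcr1 reached at most 1.3 FPKM, and Flt3, Zbtb46 and Siglech stayed under 1 FPKM. The part of dendritic cells in the result was not tested.

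**Figure D1:**
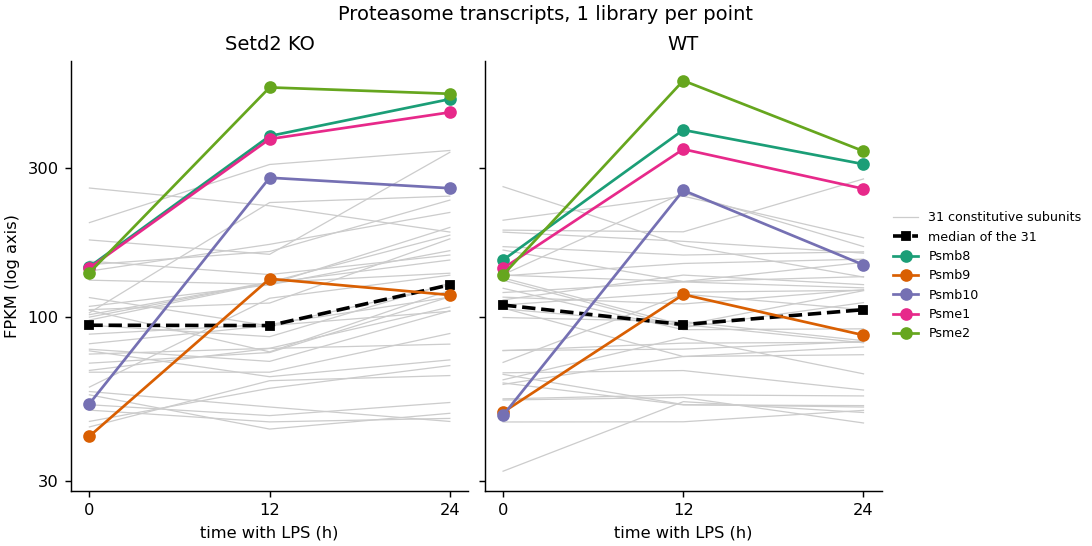
Level of the inducible 5 (coloured) and of the 31 constitutive subunits (grey, with their median dashed) in FPKM on a log axis against hours of LPS, KO in the left panel and WT in the right, with 1 library per point. Each of the inducible 5 lies above its 0 h level in all 4 LPS libraries, and at 24 h each is higher in KO than in WT cells, as Psmb10 with 259 FPKM in KO and 147 FPKM in WT cells.

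Sizes are given as differences of log2(FPKM + 1), and a gene was called at a size of 1, which is 2-fold. At 12 h the differences from 0 h were 1.38 in KO and 1.38 in WT cells for Psmb8, 1.65 and 1.23 for Psmb9, 2.38 and 2.37 for Psmb10, 1.36 and 1.26 for Psme1, and 1.96 and 2.06 for Psme2. All 10 of these differences were past 2-fold. At 24 h they were 1.77 in KO and 1.01 in WT cells for Psmb8, 1.48 and 0.81 for Psmb9, 2.27 and 1.58 for Psmb10, 1.65 and 0.84 for Psme1, and 1.89 and 1.31 for Psme2. At that time all 5 were called in KO and 3 of 5 in WT cells. The 12 h and 24 h differences of a genotype share its 0 h library.

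A single fit over all 6 libraries (limma, with genotype and time as additive terms and Benjamini-Hochberg adjustment over 11547 genes) used KO and WT as the 2 libraries of each time, so its error is how far the genotypes disagreed and not a spread between replicates. By this test 10 of the 49 members rose and 5 fell at 12 h, against 11.8% of all genes that rose and 30.5% that fell (42.3% in either direction). All of the inducible 5 rose at 12 h: Psmb10 by 2.37 ± 0.24 (SE, adjusted p = 0.000674), Psme2 by 2.01 ± 0.25 (adjusted p = 0.00134), Psmb9 by 1.44 ± 0.22 (adjusted p = 0.00321), Psmb8 by 1.38 ± 0.26 (adjusted p = 0.00725) and Psme1 by 1.31 ± 0.26 (adjusted p = 0.00859). At 24 h 9 members rose and 4 fell, against 9.29% and 25.2% of all genes (34.5% in either direction). The inducible 5 rose again, by 1.14 for Psmb9 to 1.92 for Psmb10, with adjusted p between 0.00158 and 0.0124. Their median in this fit was 1.44 at 12 h and 1.39 at 24 h, beside 0.02 and 0.23 for the 31 constitutive subunits.

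Counted by size in each genotype, 7 members were at least 2-fold higher and 4 lower at 12 h in KO cells, where 26.1% of all genes were called in either direction (8.63% higher, 17.5% lower). In WT cells at 12 h the counts were also 7 and 4, with 27% of all genes called (9.64% higher, 17.4% lower). At 24 h 8 members were higher and 2 lower in KO cells, where 29.1% of all genes were called (7.55% higher, 21.6% lower). In WT cells at 24 h 4 were higher and 2 lower, where 21.5% of all genes were called (7.65% higher, 13.9% lower). The 4 of 49 members called higher in WT cells at 24 h are a share near that of all genes. The share of members called higher exceeded that of all genes most at 24 h in KO cells, and the share called lower was below that of all genes in every one of these 4 comparisons. FPKM is relative to the mapped total, and the median difference of all genes from 0 h was -0.36 and -0.39 in KO and -0.28 and -0.25 in WT cells at 12 and 24 h. Scaling that brought these medians close to 0 (median of ratios) changed the counts to 10 higher and 3 lower in KO and 11 and 2 in WT cells at 12 h, and to 20 and 1 in KO and 7 and 2 in WT cells at 24 h. The limma counts were then 11 higher and 3 lower at 12 h and 13 and 1 at 24 h, and none of the inducible 5 lost its call under this or any other alternative tried for that fit. The share of all genes called was not counted under this scaling, so these member counts have no background beside them.

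**Figure D2:**
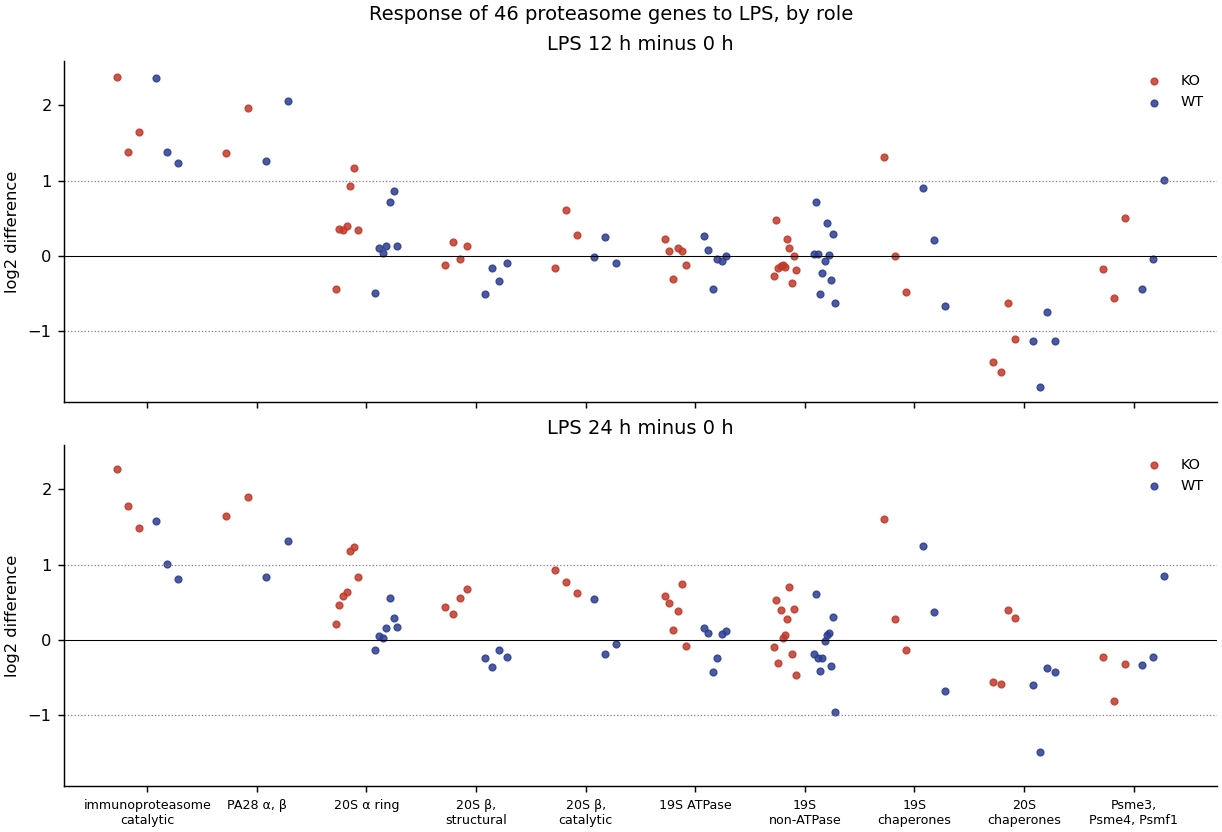
LPS response of 46 members by role at 12 h (top) and 24 h (bottom), as the difference of log2(FPKM + 1) from the 0 h library of the same genotype, with 1 point per gene, KO left of WT, and dotted lines at the 2-fold size (Psma8, Psme2b and Psmc3ip are left out). The inducible genes lie between 1.23 and 2.38 at 12 h, and 3 of the 4 chaperones of the core lie past 2-fold lower at 12 h in both genotypes, or 1 of the 4 (Psmg2) with the length trend removed.

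Of the 31 constitutive subunits, 3 rose at 12 h in the limma fit, namely Psma6, Psma5 and Psmd11, and none fell, where 11.8% of all genes rose and 30.5% fell. The share that rose is near that of all genes. Psma6, a structural subunit of the outer ring of the core, was at 103, 233 and 244 FPKM in KO and 137, 249 and 168 FPKM in WT cells at 0, 12 and 24 h. Its 12 h libraries lay above both 0 h libraries (1.01 ± 0.27, limma adjusted p = 0.0231). With the values as deposited it did not pass at 24 h (0.76 ± 0.27, limma adjusted p = 0.0662). Psma5, of the same ring, was at 59.8, 115 and 136 FPKM in KO and 71.7, 119 and 106 FPKM in WT cells, and rose at both times (0.83 ± 0.22 and 0.86 ± 0.22, limma adjusted p = 0.0235 and 0.0238). Psmd11, a lid subunit of the cap, was at 44.6, 62.6 and 65.0 FPKM in KO and 32.2, 53.7 and 49.6 FPKM in WT cells. It rose at both times by the same fit (adjusted p = 0.0353 and 0.0485, or 0.0578 and 0.0768 when genes under 1 FPKM were also tested), by less than 2-fold in each genotype. With the length trend removed (below), the 24 h differences of Psma6 and Psma5 in KO cells were 0.78 and 0.84, under the 2-fold size, rather than 1.23 and 1.18. At 24 h the catalytic subunit Psmb5 also rose (0.73 ± 0.22, limma adjusted p = 0.0436, or 0.0709 when genes under 1 FPKM were also tested). It was at 177, 159 and 337 FPKM in KO and 190, 188 and 277 FPKM in WT cells, so that only its 24 h libraries were high as deposited. With the length trend removed it was at 196, 200 and 272 FPKM in KO and 150, 221 and 263 FPKM in WT cells. Its WT library at 12 h then also lay above that at 0 h, by 0.56, and its 24 h difference in KO cells was 0.47 rather than 0.93. Psmd8, another lid subunit, fell by 0.71 ± 0.22 at 24 h (limma adjusted p = 0.0474, or 0.413 under median-of-ratios scaling and 0.0759 when genes under 1 FPKM were also tested), with 259, 227 and 187 FPKM in KO and 261, 170 and 134 FPKM in WT cells.

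The other constitutive subunits did not pass the test at either time with the values as deposited. Under median-of-ratios scaling more members rose at 24 h in that fit, and the members gained are not named here. The ATPase ring of the cap held Psmc6, which unfolds substrates with its 5 partners, at 50.4, 46.2 and 47.4 FPKM in KO and 46.2, 46.3 and 50.3 FPKM in WT cells. These 6 values were nearly level, and Psmc6 had the narrowest range of any member (highest over lowest 1.09). The ring as a whole summed to 544, 552 and 739 FPKM in KO and 577, 563 and 559 FPKM in WT cells. With the length trend removed the ring summed to 572, 609 and 661 FPKM in KO and 523, 605 and 550 FPKM in WT cells. The summed FPKM of the 14 constitutive core subunits was 1587, 1979 and 2603 in KO and 1912, 1999 and 1973 in WT cells at 0, 12 and 24 h. For the 17 cap subunits the sums were 1528, 1483 and 1763 FPKM in KO and 1564, 1459 and 1391 FPKM in WT cells. The inducible 5 summed to 522, 1706 and 1845 FPKM in KO and 530, 1685 and 1140 FPKM in WT cells. As deposited, the sums of the core, the cap and the inducible 5 were all highest in the KO library at 24 h. With the length trend removed, only the cap of these 3 kept that order, and the core was highest in the KO library at 12 h, with 1727, 2395 and 2180 FPKM in KO and 1586, 2287 and 1897 FPKM in WT cells. The inducible 5 were then highest in the KO library at 12 h too, with 564, 2024 and 1566 FPKM in KO and 449.6, 1906 and 1104 FPKM in WT cells.

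Of the 7 assembly chaperones, Psmg1, Psmg2 and Psmg4 fell and Psmd10 rose at 12 h in the limma fit, where 30.5% of all genes fell and 11.8% rose. Whether the shares of so few genes differ from those of all genes was not tested. Psmg1 and Psmg2, which pair to guide the alpha ring, both fell at 12 h, by 1.26 ± 0.20 and 1.63 ± 0.26 (limma adjusted p = 0.00339 and 0.00373). Psmg1 was at 13.7, 4.55 and 8.98 FPKM in KO and 16.7, 7.14 and 10.8 FPKM in WT cells. Psmg2 was at 14.4, 4.32 and 9.32 FPKM in KO and 22.2, 5.98 and 7.26 FPKM in WT cells, and was still lower at 24 h (-1.03 ± 0.26, limma adjusted p = 0.0236, or 0.122 under median-of-ratios scaling and 0.0511 when genes under 1 FPKM were also tested). Psmg4, which works with Psmg3, fell at 12 h (-1.11 ± 0.24, limma adjusted p = 0.0106, or 0.0565 under median-of-ratios scaling), with 20.4, 9 and 25.1 FPKM in KO and 25.9, 11.4 and 18.98 FPKM in WT cells. With the length trend removed, the 12 h differences of Psmg4 were -0.89 in KO and -0.38 in WT cells rather than -1.09 and -1.12, and those of Psmg1 were -1.29 in KO and -0.66 in WT cells rather than -1.41 and -1.12. Psmg3 did not pass the test and was at 12.99, 8.11 and 17.5 FPKM in KO and 16.9, 9.71 and 12.9 FPKM in WT cells. All 4 Psmg genes had their lowest value at 12 h in each genotype. Psmd10, known as gankyrin, a chaperone of the cap's ATPase ring, rose at 12 and 24 h (1.11 ± 0.19 and 1.42 ± 0.19, limma adjusted p = 0.00523 and 0.00214). Its levels were 15.3, 39.5 and 48.3 FPKM in KO and 19.8, 37.7 and 48.5 FPKM in WT cells, with every LPS library above both 0 h libraries. The other cap chaperones, Psmd5 and Psmd9, and the inhibitor Psmf1 did not pass the test, and Psmf1 kept to a range of 8.27 to 9.85 FPKM in KO and 7.77 to 10.8 FPKM in WT cells.

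Neither of the remaining activators, Psme3 and Psme4, passed the test at 12 or 24 h. Psme3, the nuclear PA28 gamma, was at 47.8, 32.3 and 26.9 FPKM in KO and 35.1, 34.0 and 29.8 FPKM in WT cells. The level of Psme1 relative to Psme3 was 3.004, 11.5 and 16.8 in KO and 4.08, 10.1 and 8.65 in WT cells. With the length trend removed it was 3.29, 14.1 and 13.8 in KO and 3.32, 11.8 and 8.34 in WT cells. Psme4, the activator PA200, was at 15.1, 21.7 and 11.9 FPKM in KO and 10.4, 21.9 and 19.4 FPKM in WT cells. As deposited, the genotypes were thus level at 12 h and apart at 0 and 24 h. With the length trend removed, KO minus WT for Psme4 was 0.11 at 0 h and -0.38 at 24 h, rather than 0.50 and -0.66. Psme2b, a near copy of Psme2 with which it can share reads, was at 13.1, 21.6 and 4.93 FPKM in KO and 4.92, 16.9 and 5.80 FPKM in WT cells. It rose at 12 h (1.14 ± 0.34, limma adjusted p = 0.0332, or 0.0557 with the length trend removed and 0.0706 when genes under 1 FPKM were also tested), and its values are uncertain because of the shared reads. Psmc3ip, a meiotic recombination factor named after Psmc3, fell at 12 and 24 h (-1.52 ± 0.20 and -2.23 ± 0.20, limma adjusted p = 0.00163 and 0.000371), with 5.21, 1.32 and 0.52 FPKM in KO and 8.84, 2.22 and 0.82 FPKM in WT cells. Psma8 also fell at both times, at levels at or under 0.55 FPKM after LPS, and passed at neither under median-of-ratios scaling (limma adjusted p = 0.0668 and 0.0970).

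At each catalytic position the balance of transcripts was farther toward the inducible subunit in both LPS libraries than at 0 h, in both genotypes. The ratio of Psmb8 to Psmb5 was 0.821, 2.39 and 1.48 in KO and 0.802, 2.12 and 1.11 in WT cells at 0, 12 and 24 h. For Psmb10 to Psmb7 the ratio was 0.376, 1.63 and 1.20 in KO and 0.289, 1.61 and 0.908 in WT cells. For Psmb9 to Psmb6 it was 0.207, 0.431 and 0.345 in KO and 0.243, 0.485 and 0.488 in WT cells. Psmb9 thus stayed below its constitutive counterpart in all 6 libraries, and Psmb8 and Psmb10 passed theirs at 12 h in both genotypes. Of the summed FPKM of the 6 catalytic genes, the inducible 3 held 31.6%, 55.4% and 49.4% in KO and 30.8%, 56.6% and 46.8% in WT cells. With the length trend removed the shares were 30.7%, 52.7% and 51.6% in KO and 33.4%, 54.7% and 47.5% in WT cells. Either way they differed between the genotypes by far less than between 0 h and either LPS time. A scaling of whole libraries leaves the shares as they are, and removal of the length trend does not.

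**Figure D3:**
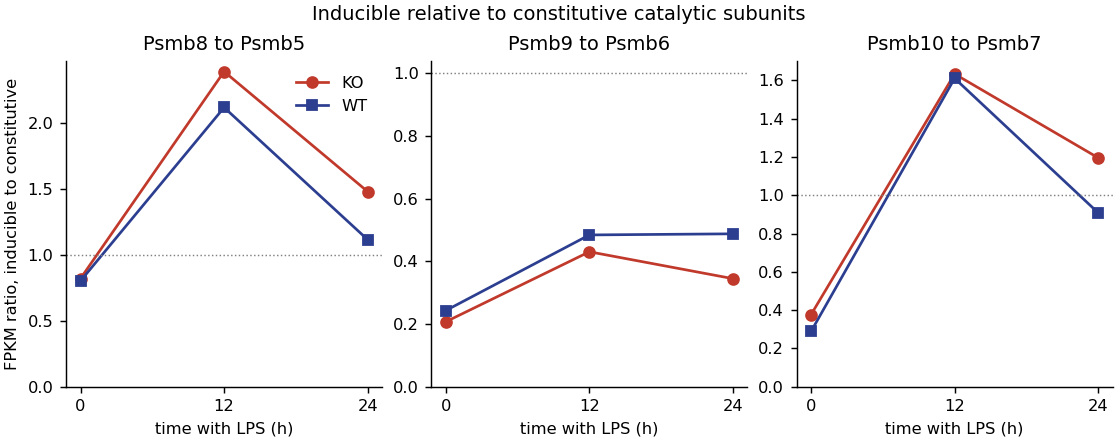
Ratio of inducible to constitutive FPKM at each catalytic position against hours of LPS, on linear axes that start at 0 and differ between panels, with 1 point per library, KO and WT as separate lines and a dotted line at 1. The ratios for Psmb8 and Psmb10 pass 1 at 12 h in both genotypes, and those for Psmb9 stay between 0.207 and 0.488.

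The inducible 5 were close to level between KO and WT cells at 0 and 12 h as deposited, and all lay on the KO side at 24 h, with no member past 2-fold at that time. At 0 h 1 of 49 members, Psme2b, was at least 2-fold higher in KO cells (1.25), where 4.23% of all genes were called in either direction (2.96% higher, 1.26% lower). None was called at 12 h, where 2.04% of all genes were (1.32% higher, 0.727% lower), and none at 24 h, where 4.15% were (2.22% higher, 1.93% lower). In limma's additive fit over the 3 times 0 of 49 members passed, against 0.0173% of all genes, all of them lower in KO cells. The members with an unadjusted p under 0.05 were 2, namely Psmd11 (0.35 ± 0.15, adjusted p = 0.565) and Psmc3ip (-0.47 ± 0.16, adjusted p = 0.490). The median of KO minus WT over the inducible 5 was 0.00 at 0 h, 0.11 at 12 h and 0.69 at 24 h. It was -0.16, -0.04 and 0.33 over the constitutive subunits and 0.02, -0.06 and -0.12 over all genes.

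At 24 h all of the inducible 5 were on the KO side, by 0.81 for Psmb10, 0.81 for Psme1, 0.69 for Psmb8, 0.61 for Psme2 and 0.42 for Psmb9, which is 1.76-fold, 1.76-fold, 1.61-fold, 1.53-fold and 1.34-fold in FPKM. The standard errors of these differences from read counting alone, at the estimated depth, were 0.02 to 0.04. The largest difference of any member at 24 h was that of the constitutive catalytic subunit Psmb6 (0.92), with 341 FPKM in KO and 179 FPKM in WT cells. Of the constitutive subunits 29 of 31 were on the KO side at 24 h and 7 of 31 at 0 h, and all 14 of the core were lower in KO at 0 h and higher at 24 h. With the length trend removed the direction at 0 h turned over, with 26 of 31 constitutive subunits and 11 of the 14 of the core on the KO side at 0 h, and 26 of 31 and 13 of 14 at 24 h. In WT cells all 5 inducible genes were lower at 24 h than at 12 h (median -0.43). In KO cells 2 of 5 were higher at 24 h than at 12 h, and the median was -0.07. With the length trend removed 1 of 5 was higher in KO and 0 of 5 in WT cells, and the medians were -0.54 in KO and -0.67 in WT cells. By size, 3 members were called higher and 1 lower at 24 h against 12 h in KO cells (Psmb5, Psmg3 and Psmg4, and Psme2b), where 12.5% of all genes were called (4.78% higher, 7.67% lower). In WT cells 1 was called lower (Psme2b), where 5.61% of all genes were called (1.82% higher, 3.79% lower). Removal of the length trend took the KO differences of Psmb5, Psmg3 and Psmg4 from 1.08, 1.02 and 1.39 to 0.44, 0.42 and 0.63, under the 2-fold size. That of Psme2b in KO cells stayed past it, at -2.53.

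These genotype differences moved together with transcript length. Over 7663 genes, which are not independent replicates, Spearman's rho between the KO minus WT difference and transcript length was 0.60 at 0 h, 0.13 at 12 h and -0.44 at 24 h. Members are short, with a median transcript of 1311 bases for the inducible 5 and 1512 bases for the constitutive subunits, beside 2714 bases for all genes. With the length trend removed from every library, the KO minus WT median of the inducible 5 was 0.40, 0.18 and 0.56 at 0, 12 and 24 h, and that of the constitutive subunits 0.12, -0.01 and 0.22. At 24 h the values of Psmb8, Psmb9, Psmb10, Psme1 and Psme2 were then 0.56, 0.25, 0.63, 0.60 and 0.37.

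**Figure D4:**
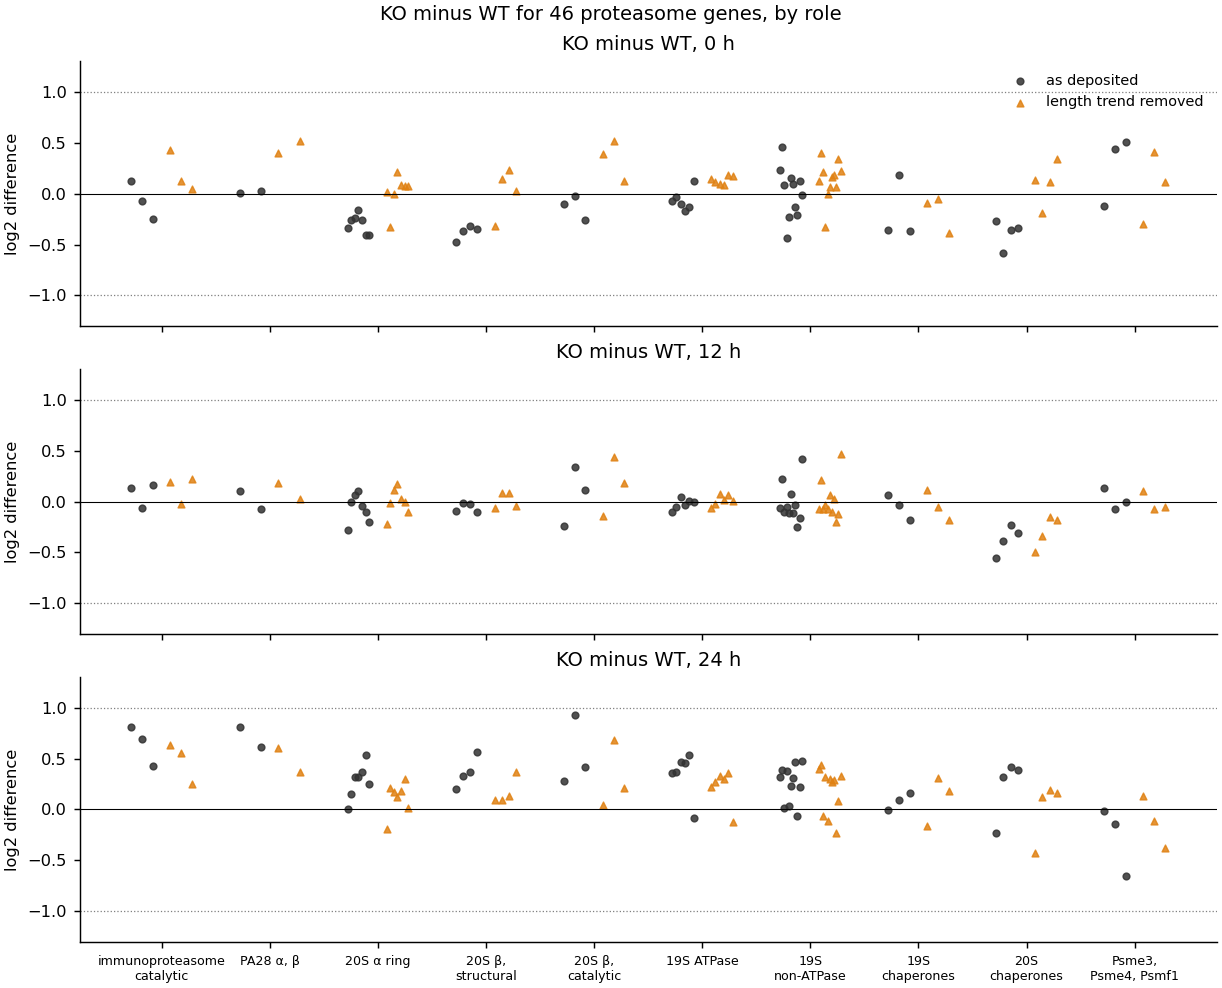
Difference of log2(FPKM + 1) between KO and WT cells for 46 members by role at 0, 12 and 24 h, with 1 point per gene as deposited (circles) and with the length trend removed (triangles), and dotted lines at the 2-fold size. As deposited, all 14 constitutive core genes lie below 0 at 0 h and above 0 at 24 h, and the inducible 5 lie between 0.42 and 0.81 at 24 h. With the trend removed 11 of the 14 core genes lie above 0 at 0 h and 13 at 24 h, and the inducible 5 lie between 0.25 and 0.63 at 24 h.

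The response to LPS at 24 h, KO minus WT, had a median of 0.69 over the inducible 5 and 0.49 over the constitutive subunits, beside -0.12 over all genes. After removal of the length trend these medians were 0.20, 0.10 and -0.08. At 12 h they were 0.01, 0.14 and -0.07 as deposited, and -0.22, -0.09 and -0.05 with the trend removed. By size, no member was called for the difference of responses at 12 h, where 4.79% of all genes were (1.65% higher, 3.14% lower). At 24 h 2 members were called lower, where 12.7% of all genes were called (4.04% higher, 8.63% lower). Those 2 were Psme2b (-1.44) and Psme4 (-1.16). For Psme4 the difference of responses was -0.50 with the trend removed, and for Psme2b it was -2.08.

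Of 12 genes of class I peptide loading, which uses the peptides that the proteasome makes, 6 rose at 12 h in limma's fit and none fell, and 9 rose at 24 h, where 11.8% and 9.29% of all genes rose at 12 and 24 h. Tap1 and Tap2, the subunits of the peptide transporter, lie beside Psmb9 and Psmb8 on chromosome 17. Tap1 was at 49.5, 258 and 185 FPKM in KO and 30.9, 179 and 126 FPKM in WT cells, and Tap2 was at 47.3, 194 and 137 FPKM in KO and 36.0, 123 and 84.2 FPKM in WT cells. Both were higher in KO than in WT cells at each time, by 0.66, 0.53 and 0.55 for Tap1 and by 0.38, 0.66 and 0.69 for Tap2, all under the 2-fold size. For KO against WT over the 3 times neither passed in limma's fit (adjusted p = 0.354 for Tap1 and 0.372 for Tap2), nor did any other of the 12 genes. Of 15 genes of interferon signalling, 9 rose and 1 fell at 12 h, and 8 rose at 24 h. At 0 h Irf7 (2.97) and Stat2 (1.84), factors of the interferon response, were at least 2-fold higher in KO cells, as was Nlrc5 (1.19), the class I transactivator, in the peptide loading list. The value for Nlrc5 was 0.82 with the length trend removed, and the median of the inducible 5 at that time was 0.00 as deposited and 0.40 with the trend removed.

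Among 24 partners of the proteasome, 3 rose and 6 fell at 12 h in limma's fit, and 3 rose and 4 fell at 24 h. These shares are near those of all genes, of which 11.8% rose and 30.5% fell at 12 h and 9.29% rose and 25.2% fell at 24 h. Uchl5 and Usp14, which are among the deubiquitinases of the cap, fell at 12 h (-1.63 ± 0.20 and -0.92 ± 0.20, limma adjusted p = 0.00134 and 0.0109). The constitutive cap subunit Psmd14, also a deubiquitinase, did not pass at 12 h (-0.17 ± 0.18, limma adjusted p = 0.474). Nfe2l1, the factor that drives proteasome genes when the proteasome is impaired, rose at 12 h (0.70 ± 0.21, adjusted p = 0.0362). Pomp, the maturation factor of new cores, was at 140, 165 and 315 FPKM in KO and 227, 195 and 227 FPKM in WT cells. Its response at 24 h was larger in KO by 1.15, or by 0.80 with the length trend removed. Ddi2, the protease that activates Nfe2l1, was higher in KO cells at 0 h by 1.13, or by 0.58 with the trend removed.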

How the data were processed

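Total RNA of 6 mouse macrophage libraries, 1 per genotype and time, was isolated by TRIzol and read on a BGISEQ-500 sequencer, per the labels' protocols. The authors deposited 1 table of FPKM values with 2 decimals, per the file headers; Bowtie2, RSEM and the build GRCm38 are named in the submitters' processing notes, with versions not given in the sources used here. The table's 1 row without a gene was left out, 25 symbols turned into dates were restored from gene IDs, and 2 cells that are not numbers were read as missing.

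Depth was estimated from the whole-read steps visible among weak genes, for an assumed read length of 50. The step score was 0.404 to 0.459, against 0.0982 to 0.137 with lengths shuffled. Intervals and errors from it cover counting error only. Each comparison was a difference of log2(FPKM + 1), which understates changes of weak genes, over genes with 1 FPKM in any library, called at 2-fold; with 1 library per group these have no p-value. limma 3.58.1 (R 4.3.3) fitted genotype and time additively with a trend and robust moderation, and Benjamini-Hochberg adjustment at 0.05 over 11547 genes; its 2 residual degrees of freedom measure disagreement between genotypes and times. Both steps were tested on simulated data. The length trend was removed by lowess (span 0.3) over GENCODE M21 transcript lengths.

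All members could be named, and of the other lists the called genes and up to 4 with the largest difference. Members and lists were chosen with earlier results of these data known. Alternatives were other pseudocounts, minimums, fold rules and scalings, length-trend removal and leaving out each time. Protein sequences were not used here.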

Additional observations from a re-analysis of the deposited data

Results flagged for a closer look

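The response of Psme2b to 24 h of LPS went opposite ways in the genotypes as deposited, with -1.24 in KO and 0.20 in WT cells, a KO minus WT difference of -1.44 on the log2(FPKM + 1) scale that was not tested. The response of Psme4 did likewise, with -0.32 in KO and 0.84 in WT cells, a difference of -1.16 that was not tested either; with the length trend removed Psme4 went the same way in both, with 0.16 in KO and 0.66 in WT cells, and the difference was -0.50.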

How the results depend on the processing

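No paired analysis was possible because each group holds 1 library, and the groups share only the replicate number 1. Of the summary results under the alternatives, 120 kept their direction and side of the threshold or count, 19 moved and 1 weakened, and 0 values past the size or test threshold changed sign. The members called for KO against WT at 24 h (0) were 1 with a pseudocount of 0.1 and under median-of-ratios or trimmed-mean scaling, and 6 with a 1.5-fold rule. At 0 h (1) they were 0 with a pseudocount of 5 or a 3-fold rule, and 3 with a 1.5-fold rule. Under LPS the count for KO at 24 h (10) was 21 under both scalings and with a 1.5-fold rule, and 6 with a 3-fold rule, and for KO at 12 h (11) it was 3 with a 3-fold rule. For WT at 12 h (11) it was 7 with a pseudocount of 5, 19 with a 1.5-fold rule and 5 with a 3-fold rule, and for WT at 24 h (6) it was 13 and 1 with those rules. The median of the inducible 5 at 24 h in WT cells, 1.01, was 0.995 with a pseudocount of 5, and that for KO against WT at 0 h, 0.00 as deposited, changed sign to -0.022 under median-of-ratios and -0.029 under trimmed-mean scaling. For the KO minus WT response at 24 h (2) the count was 5 under both scalings (4 higher, 1 lower) and 1 with the length trend removed, and for 24 h against 12 h in KO cells (4) it was 1 with the trend removed. The constitutive median for KO against WT at 0 h, -0.16 as deposited, changed sign to 0.12 with the trend removed. Leaving out each time in turn gave 0 to 0 members for the genotype term of limma. The cause of these moves was not tested, beyond the stricter or looser rule itself. Shares of all genes were not counted under the other pseudocounts, scalings or fold rules. With 1 library per group, 2 decimals and an estimated depth, errors between cultures are not measured, and members under about 1 FPKM rest on few reads.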
